A study of Mus musculus with 14 samples.

Results

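Solute carriers are membrane proteins that move sugars, amino acids, nucleotides, vitamins, metals and other ions between compartments of the cell. The genes described here are those whose symbol has the form Slc, a family number, the letter a and a member number, and whose mean level over all 14 libraries was at least 10 CPM (the count scaled to a common library total), without Slc2a1, Slc16a1 and Slc7a11. Of 335 symbols of that form in the table, 250 had a count in at least 1 library and 110 reached the threshold, which leaves 107 genes from 36 families. The levels that chose them are a description and no result: just inside the threshold were Slc25a15 at 10.1 CPM, Slc39a3 at 10.2, Slc25a22 at 10.3 and Slc52a3 at 10.8, and just outside it were Slc46a1 at 9.88, Slc22a15 at 9.73, Slc43a2 at 9.62, Slc16a4 at 9.47 and Slc15a3 at 9.03.

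The cells were Sca1+ mouse epidermal cells, labelled as Lrig1 GL, from animals of the genotype Lrig1CreER/Rosa-TdTomato, in which a Cre recombinase under the control of Lrig1, a gene of a hair follicle stem cell compartment, turns on a red fluorescent reporter. They were sorted and then grown for 1 week in complete keratinocyte medium, so every value describes cultured keratinocytes. Both regions share genotype, sort, culture and the time label 8w pw1. The labels name no treatment, which does not show that none was given. The 6 Distal libraries came from a distal region labelled as a memory region, and the 8 Control libraries from a region labelled as non-memory. The comparison asks how cells of these 2 regions differ after culture. The labels do not name the animal or culture behind each library. The p-values then measure only the spread between libraries, which may be technical.

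Solute carriers differ in where they sit and what drives them. Most of the SLC25 family lie in the inner mitochondrial membrane and exchange nucleotides, phosphate and metabolic intermediates between the matrix and the cytosol. All SLC25 genes are grouped below as mitochondrial carriers by their family number, whatever their membrane. SLC30 proteins take zinc out of the cytosol and SLC39 proteins bring it in. In the epidermis amino acid, glucose and lactate carriers feed a tissue without blood vessels of its own, and zinc transport matters for the skin, since inherited zinc deficiency causes a dermatitis.

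Library totals were 2137934 to 4513518 counts in the Distal libraries and 4515646 to 7458872 in the Control libraries, so depth and region did not overlap. The 107 genes held 1.06% to 1.49% of all counts in Distal libraries and 1.17% to 1.40% in Control libraries. The 8 keratinocyte markers summed to 21385 to 26239 CPM in Distal libraries and 12436 to 17404 CPM in Control libraries, with none at 0. Mean CPM was higher in Distal for Krt14 (10066 against 3709), Krt5 and Itgb4, and lower for Trp63, Itga6, Cdh1, Epcam and Dsp. In the test described below, 3 of the 8 were higher in Distal, 3 were lower and 2 did not pass. The 6 fibroblast markers summed to 2.28 to 85.7 CPM in Distal libraries and 0.485 to 233 CPM in Control libraries, with Lum at 0 in both. The 5 immune markers summed to at most 1.40 CPM in Distal libraries and 0.443 CPM in Control libraries. Of the 4 endothelial markers, which reached 10.9 CPM in Distal and 9.52 CPM in Control libraries, Cdh5 and Vwf were at 0 in both, and of the 6 melanocyte markers, which reached 39.7 CPM in Distal and 46.9 CPM in Control libraries, Dct was at 0 in both. The 4 muscle markers summed to 267 to 475 CPM in Distal libraries and 58.3 to 125 CPM in Control libraries, nearly all of it Acta2. The part of these levels in the results on solute carriers was not tested. In bulk RNA, fewer cells of a type and less RNA per cell cannot be told apart.

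Mitochondrial carriers dominated the list. The 29 SLC25 genes took 52.5% of the summed mean CPM of the 107 genes, the 15 amino acid transporters 14.7% and the 14 zinc transporters 10.96%. Per kilobase of merged exons, the mean level of Slc25a5, an ADP/ATP carrier, was 1818 CPM per kb, that of its paralog Slc25a4 325 and that of the phosphate carrier Slc25a3 267. Per kilobase of median transcript length, an alternative chosen after the data were seen, these levels were 3025, 478 and 1085 CPM per kb, so Slc25a5 led with either length and the order of Slc25a4 and Slc25a3 turned. The mean CPM reached 10 in both regions for 92 genes, only in Distal for 13 and only in Control for 2, Slc25a15 and Slc38a4; a gene that entered through 1 region had to be higher there, so these 15 show nothing about direction. All 107 genes passed the filter on low counts, and the smallest count of any of them in a library was 0, for the amino acid transporter Slc6a14 in Distal replicate 4.

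Distal and Control libraries differed in many solute carriers, in both directions. By edgeR's quasi-likelihood test with Benjamini-Hochberg adjustment over all 11757 tested genes, which gives every adjusted p below unless another fit is named, 29 of the 107 genes were higher in Distal, 28 were lower and 50 did not pass. Over all tested genes 48.3% passed, 24.3% higher and 24.1% lower, so the 57 solute carriers that passed (53.3%) are a share near the background. The median log2 fold change (Distal over Control) was 0.02 for the solute carriers and -0.16 for all tested genes. Genes that entered the list through the mean of only the higher region had a fixed direction. Without them 92 genes remained, of which 20 were higher and 27 lower, with a median log2 fold change of -0.24. With upper-quartile scaling in place of TMM, which moved the median of all genes to 0.00, the split of the 107 genes was 33 higher and 20 lower. All Distal libraries were above all Control libraries for 12 solute carriers and below for 5, against 12.7% and 5.65% of all tested genes. On CPM without TMM scaling, a comparison added after the data were seen, these counts were 16 and 2, against 15.3% and 3.57% of all tested genes. There Slc39a6, Slc4a7 and Slc25a13 overlapped, while Slc16a13, Slc12a4, Slc39a13 and Slc41a1 did not. Below, overlap refers to the TMM-scaled values.

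These differences followed the base composition of the transcripts. Solute carriers higher in Distal had a median transcript GC content of 56.4%, those lower in Distal 45.97% and those that did not pass 51.5%. Across the 107 genes GC content and log2 fold change had a Spearman correlation of 0.80 and a Pearson correlation of 0.77, against a Spearman correlation of 0.73 across 11705 genes; genes of the same libraries are not independent, and the correlations are a description. When all genes were divided into 5 bins of equal size by GC content, 19 of the 22 solute carriers in the highest bin were higher in Distal and 0 lower, beside 67.2% and 1.88% of all genes of that bin. In the lowest bin 0 of 11 were higher and 7 lower, beside 0.342% and 53.4% of all genes. Some higher solute carriers of the highest bin entered the list only through their Distal mean, among them Slc39a13, Slc25a10 and Slc29a2. Their direction was fixed by the choice of members, and the medians, correlations and bins above include such genes. For a slope per library, the log2 expression of each gene was taken as its difference from the gene's mean over all 14 libraries. The slope of this difference on GC content, with length in the model, is given per 10 percentage points. It was 0.22 to 0.91 in the Distal libraries and -0.60 to -0.33 in the Control libraries. Being relative to the mean of all libraries, the signs only place the regions against each other. Within Distal the slope was lowest in replicates 3 and 4, with 0.22 and 0.34, which were also the deepest Distal libraries with 4513518 and 4381280 counts.

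**Figure D1:**
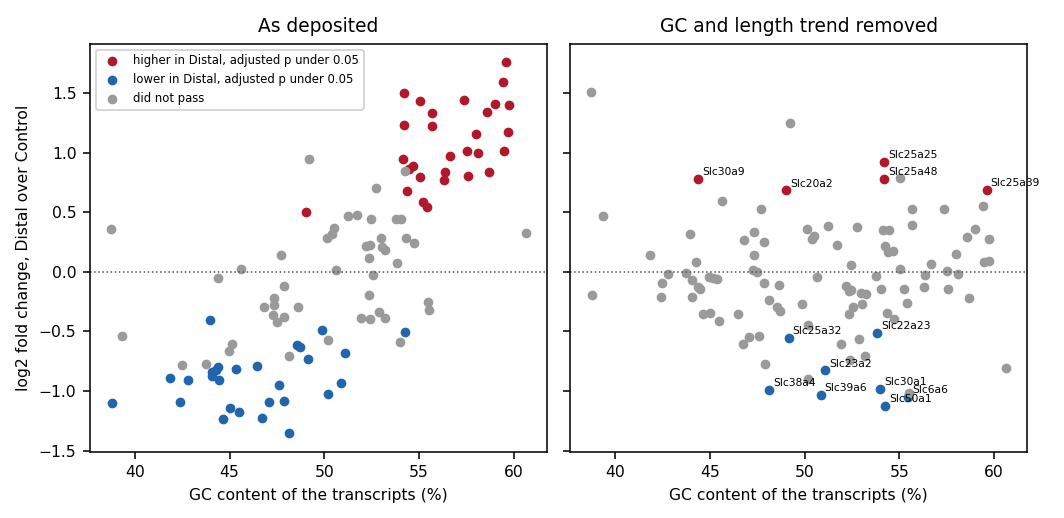
Log2 fold change, Distal over Control, of the 107 solute carriers against the GC content of their transcripts, as deposited (left) and after a smooth trend on GC content and length was removed from each library (right). Each point is 1 gene; red and blue points passed an adjusted p of 0.05, and the Spearman correlation is 0.80 on the left and 0.07 on the right.

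After a smooth trend on GC content and transcript length was removed from each library, 5 solute carriers were higher in Distal, 8 were lower and 94 did not pass, beside 19.0% of 11705 genes (10.4% higher and 8.59% lower). The Spearman correlation with GC content was then 0.07 and the median log2 fold change -0.06, against 0.03 for all genes. Of the 29 genes higher before, 4 stayed higher, and of the 28 lower before, 5 stayed lower; none turned to a call of the opposite sign. Neither the GC slopes nor the totals of the 2 regions overlap, so region, GC trend and depth cannot be told apart. Below, the value with the trend removed stands beside the value as deposited for the genes the results turn on. The counts by transport group below stand against the shares of all tested genes, 24.3% higher and 24.1% lower as deposited. With the trend removed these shares are 10.4% and 8.59%.

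**Figure D2:**
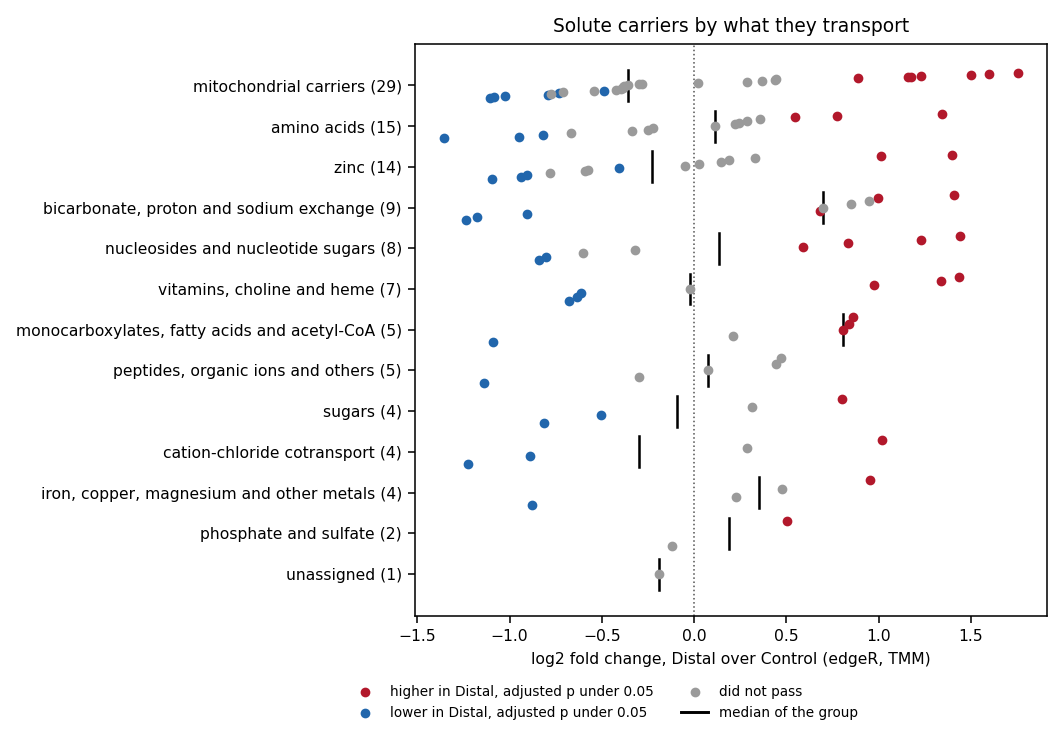
Log2 fold change, Distal over Control, of each of the 107 solute carriers (points), grouped by what they transport, with the number of genes in brackets and the median of each group as a black line. Red points were higher and blue points lower in Distal at an adjusted p of 0.05; mitochondrial carriers reach from -1.10 to 1.76, and 10 of the 12 groups of more than 1 gene hold both red and blue points.

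Among the 29 mitochondrial carriers 7 were higher in Distal, 6 were lower and 16 did not pass, with a median log2 fold change of -0.36. With the trend removed 3 were higher and 1 lower, with a median of -0.03. Slc25a39, which brings glutathione into mitochondria, was the solute carrier most raised: its lowest, median and highest values were 197, 218 and 301 scaled CPM in Distal libraries, against 42.5, 63.9 and 118 in Control libraries. Every Distal library was above every Control library (log2 fold change 1.76 ± 0.20, adjusted p = 3.42e-06; trend removed 0.68 ± 0.15, adjusted p = 0.00337). Slc25a48, linked to the uptake of choline into mitochondria, had 72.1, 83.7 and 159 scaled CPM in Distal libraries, against 29.8, 41.7 and 58.9 in Control libraries as lowest, median and highest values. Its libraries did not overlap either (log2 fold change 1.23 ± 0.20, adjusted p = 8.64e-05; trend removed 0.78 ± 0.17, adjusted p = 0.00422). Slc25a25, which exchanges ATP-Mg for phosphate, had 12.2, 17.2 and 21.4 scaled CPM in Distal libraries, against 2.37, 6.36 and 9.13 in Control libraries, again without overlap. For Slc25a25 the log2 fold change was 1.502 ± 0.29 (adjusted p = 0.000418), and with the trend removed it was 0.92 ± 0.27 (adjusted p = 0.0232). It reached the membership threshold only through its Distal mean.

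Among carriers of metabolic intermediates, Slc25a1, which exports citrate for fatty acid synthesis, had 122, 142 and 168 scaled CPM in Distal libraries, against 46.5, 64.1 and 86.1 in Control libraries. Slc25a10, the dicarboxylate carrier, had 21.4, 31.2 and 41.1 scaled CPM in Distal libraries, against 4.29, 10.4 and 16.8 in Control libraries. Neither gene had a Distal library inside the Control range (log2 fold change 1.17 ± 0.16, adjusted p = 1.73e-05 for Slc25a1; log2 fold change 1.597 ± 0.26, adjusted p = 0.000107 for Slc25a10). With the trend removed neither passed (log2 fold change 0.09, adjusted p = 0.6904; log2 fold change 0.56, adjusted p = 0.127). The glutamate carrier Slc25a22 was higher with overlapping groups (log2 fold change 1.16 ± 0.35, adjusted p = 0.0104; trend removed 0.15 ± 0.32, adjusted p = 0.794), but did not pass when the counts of each library set were summed. Slc25a10 and Slc25a22 entered the list only through their Distal mean, so their direction was fixed by the choice of members. On the lower side, Slc25a36, a pyrimidine nucleotide carrier with a transcript GC content of 38.8%, had 18.1, 34.4 and 50.4 scaled CPM in Distal libraries, against 32.9, 69.8 and 109 in Control libraries, with overlap. For Slc25a36 the log2 fold change was -1.104 ± 0.28 (adjusted p = 0.00329), and with the trend removed it was -0.19 ± 0.27 (adjusted p = 0.676). Slc25a16 had log2 fold change -1.08 ± 0.31, adjusted p = 0.00871, and Slc25a27, an uncoupling protein relative, had log2 fold change -1.03 ± 0.41, adjusted p = 0.0451. Neither passed with the trend removed (adjusted p = 0.09101 and 0.127) or with counts summed per set, and Slc25a27 kept its call without 1 library only when Control replicate 3, 4 or 5 or Distal replicate 4 was the one left out, with adjusted p up to 0.137. Slc25a32, a mitochondrial folate and flavin carrier, was lower in both fits (25.2, 41.1 and 50.5 scaled CPM in Distal libraries, against 49.4, 60.9 and 96.1 in Control libraries; log2 fold change -0.73 ± 0.20, adjusted p = 0.00601; trend removed -0.56 ± 0.19, adjusted p = 0.0467), with 1 Distal library above the lowest Control library.

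The 3 carriers of highest CPM did not pass. Slc25a5 had 1464, 2003 and 4944 scaled CPM in Distal libraries, against 2179.5, 3429.7 and 4221 in Control libraries. Slc25a3 had 857, 1113 and 1921 scaled CPM in Distal libraries, against 1178, 1727 and 2019 in Control libraries. Slc25a4 had 417, 561 and 1188 scaled CPM in Distal libraries, against 575, 838 and 1205 in Control libraries. For all 3 genes Distal replicate 3 was the highest Distal library and replicate 4 the next, with 4944 and 4356 scaled CPM for Slc25a5 against 1464 to 2423 in the other 4, so the groups overlapped. The log2 fold changes were -0.30 ± 0.28, -0.36 ± 0.20 and -0.38 ± 0.22 (adjusted p = 0.388, 0.133 and 0.164). Without Distal replicate 3, Slc25a4 passed as lower (log2 fold change -0.51, adjusted p = 0.0283). Slc25a4 and Slc25a5 are close paralogs, and the counting of reads that match both is not stated in the labels. Among 13 genes of mitochondrial pores and of the pyruvate carrier, 4 were higher and 4 lower, beside 24.3% and 24.1% of all tested genes. With the trend removed 2 were higher and 0 lower, beside 10.4% and 8.59%. Mtch1, a protein of the outer mitochondrial membrane, was higher in both fits (log2 fold change 1.34, adjusted p = 9.05e-06; trend removed 0.51, adjusted p = 0.0258), while its paralog Mtch2 and the pore protein Vdac3 were lower only in the first (log2 fold changes -0.87 and -0.96, adjusted p = 0.000135 and 0.000416). The second gene higher in both fits was Mpc1, a subunit of the pyruvate carrier, named after its values were seen (log2 fold change 1.18, adjusted p = 0.000799; trend removed 1.67, adjusted p = 0.000293).

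Of the 14 zinc transporters 2 were higher in Distal, 4 were lower and 8 did not pass; with the trend removed 1 was higher and 2 lower. The clearest was Slc39a6, a zinc importer of the plasma membrane, which had lowest, median and highest values of 107, 169 and 302 scaled CPM in Distal libraries, against 319, 372 and 447 in Control libraries. All 6 Distal libraries were below all 8 Control libraries on these TMM-scaled values (log2 fold change -0.94 ± 0.21, adjusted p = 0.00158; trend removed -1.03 ± 0.22, adjusted p = 0.00338). Without TMM scaling the groups overlapped, the highest Distal library being at 299 CPM and the lowest Control library at 298, and it did not pass when the counts of each set were summed. Slc39a13, an importer to the cytosol from intracellular stores, had 13.98, 29.97 and 40.4 scaled CPM in Distal libraries, against 5.67, 10.2 and 14.8 in Control libraries, with overlap. For Slc39a13 the log2 fold change was 1.399 ± 0.28 (adjusted p = 0.000546). Slc39a3, of the plasma membrane, had 6.198, 15.6 and 19.8 scaled CPM in Distal libraries, against 3.43, 6.08 and 12.5 in Control libraries, with overlap. For Slc39a3 the log2 fold change was 1.02 ± 0.35 (adjusted p = 0.0215). Both entered the list only through their Distal mean, and with the trend removed their adjusted p was 0.467 and 0.898. Slc39a1, the zinc transporter of highest CPM, had 216, 359 and 385 scaled CPM in Distal libraries, against 134, 276 and 399 in Control libraries, widely overlapping. For Slc39a1 the log2 fold change was 0.19 ± 0.21 (adjusted p = 0.484). Slc39a10 had 52.9, 116 and 274 scaled CPM in Distal libraries, against 133, 236 and 329 in Control libraries, with overlap, and did not pass. For Slc39a10 the log2 fold change was -0.78 ± 0.32 (adjusted p = 0.0552). It passed as lower without Control replicate 6, Control replicate 7 or Distal replicate 3, with adjusted p down to 0.00667.

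The SLC30 proteins, which take zinc out of the cytosol, included none that was higher and 3 of 6 that were lower as deposited, with a median log2 fold change of -0.50. Over all tested genes 24.3% were higher and 24.1% lower. The median transcript GC content of these 6 genes was 44.2%. In the 2 bins of lowest GC content 53.4% and 39.6% of all genes were lower, and 0.342% and 1.62% higher, so the split is no trait particular to this family. With the trend removed 1 was higher and 1 lower, and the median was 0.15. Slc30a5, which loads zinc into the secretory pathway, had 50.97, 74.2 and 92.5 scaled CPM in Distal libraries, against 80.9, 133 and 203 in Control libraries, with overlap. For Slc30a5 the log2 fold change was -0.91 ± 0.20 (adjusted p = 0.00117), and with the trend removed it was -0.01 ± 0.16 (adjusted p = 0.964). Slc30a4 had 25.4, 42.9 and 181 scaled CPM in Distal libraries, against 58.4, 155 and 249 in Control libraries, with Distal replicates 3 and 4 inside the Control range and the other Distal libraries below it. For Slc30a4 the log2 fold change was -1.09 ± 0.43 (adjusted p = 0.0422), and with the trend removed it was -0.21 ± 0.34 (adjusted p = 0.721). Its call was kept only without Control replicate 2 or 6 or Distal replicate 3 or 4, with adjusted p up to 0.0932 without another library. The plasma membrane exporter Slc30a1 had 18.7, 41.0 and 66.8 scaled CPM in Distal libraries, against 34.7, 58.6 and 82.7 in Control libraries, with overlap, and did not pass as deposited. For Slc30a1 the log2 fold change was -0.59 ± 0.24 (adjusted p = 0.0516). It passed as lower without Control replicate 3 or Distal replicate 4 (adjusted p down to 0.0230) and with the trend removed (-0.99 ± 0.25, adjusted p = 0.00979). Slc30a9 had a log2 fold change of -0.05 as deposited (adjusted p = 0.876), or 0.11 with upper-quartile scaling, and was higher with the trend removed (0.78 ± 0.23, adjusted p = 0.0232).

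**Figure D3:**
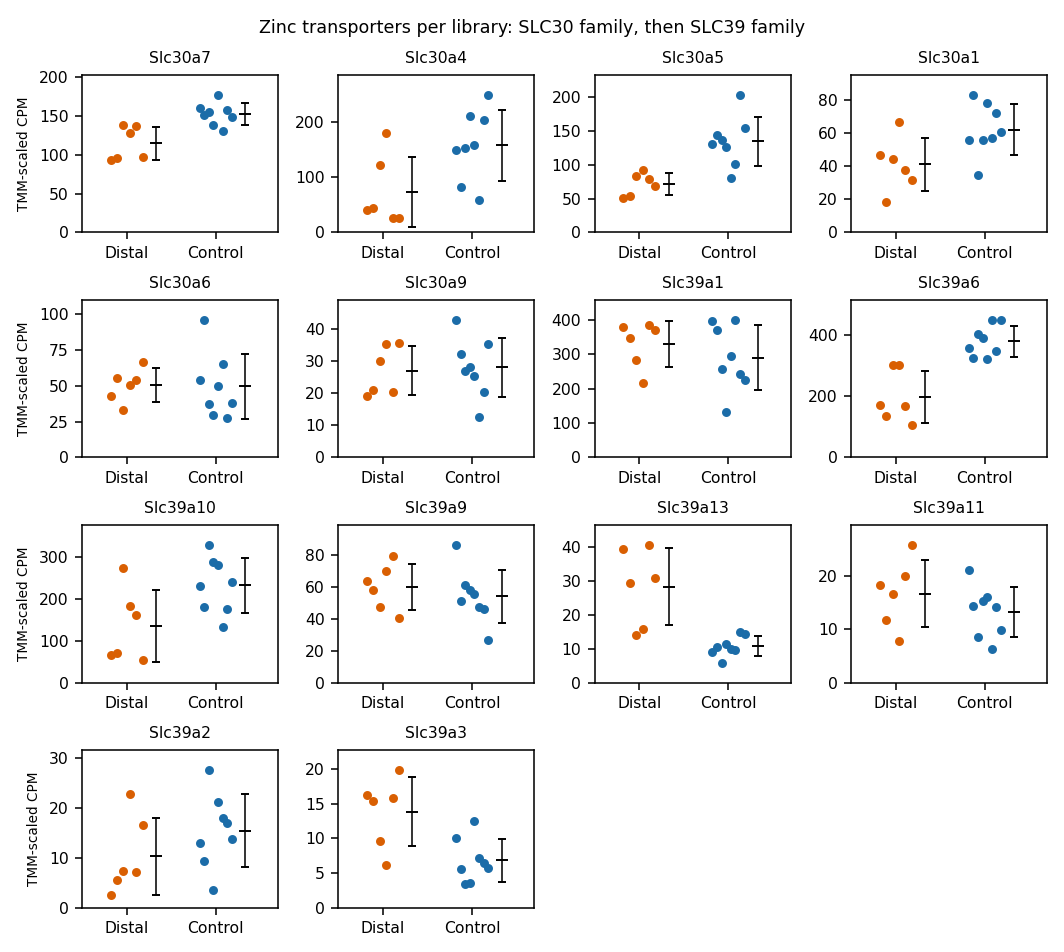
TMM-scaled CPM of the 14 zinc transporters in each library, the SLC30 genes first and the SLC39 genes after them, with Distal left of Control in each panel and the mean ± SD beside the points (n = 6 Distal and 8 Control). The Distal points of Slc39a6 lie between 107 and 302, all below the Control points.

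Slc30a1 is a textbook target of the zinc sensor MTF1, which binds metal response elements and also drives the metallothionein genes Mt1 and Mt2, whose small proteins bind zinc and copper. Mt1 and Mt2 lie outside the rule for named genes and were chosen after their values were seen. Mt2 had lowest, median and highest values of 82.3, 133 and 155 scaled CPM in Distal libraries, against 162, 301 and 549 in Control libraries. Every Distal library was below every Control library (log2 fold change -1.33 ± 0.24, adjusted p = 0.000232; trend removed -1.83 ± 0.24, adjusted p = 5.77e-05). Mt1 had 256, 316 and 351 scaled CPM in Distal libraries, against 228, 407 and 600 in Control libraries, and passed only with the trend removed (log2 fold change -0.38 ± 0.18, adjusted p = 0.0917; trend removed -1.03 ± 0.18, adjusted p = 0.000914). With counts summed per set the adjusted p of Mt2 was 0.0779. Mtf1 itself did not pass (log2 fold change 0.38 ± 0.27, adjusted p = 0.258). The promoters of these 3 genes and of Slc25a39 are shown to compare the element in a zinc exporter, in both metallothioneins and in the most raised solute carrier. Each runs from 250 bases before to 50 bases after the annotated start (RefSeq, GRCm38.p6, on the gene's strand, 5′ to 3′): Slc30a1 at chr1:191906531-191906830 (plus strand), Mt1 at chr8:94178839-94179138 (plus strand), Mt2 at chr8:94172368-94172667 (plus strand) and Slc25a39 at chr11:102407468-102407767 (minus strand). Capitals mark the letters TGCACNC or TGCGCNC, the core of the element, on either strand.
Slc30a1: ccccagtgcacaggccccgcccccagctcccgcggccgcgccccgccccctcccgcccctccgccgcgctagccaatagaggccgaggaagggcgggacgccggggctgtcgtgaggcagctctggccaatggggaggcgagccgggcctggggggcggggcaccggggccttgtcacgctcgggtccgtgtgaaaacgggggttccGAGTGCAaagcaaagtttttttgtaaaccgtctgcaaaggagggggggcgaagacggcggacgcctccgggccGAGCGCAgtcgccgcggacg
Mt1: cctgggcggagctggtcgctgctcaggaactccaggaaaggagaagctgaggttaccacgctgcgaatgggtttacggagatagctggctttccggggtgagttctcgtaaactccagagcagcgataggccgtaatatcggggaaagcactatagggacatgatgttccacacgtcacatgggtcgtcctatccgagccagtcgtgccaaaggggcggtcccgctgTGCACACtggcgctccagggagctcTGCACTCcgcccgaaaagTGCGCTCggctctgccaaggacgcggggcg
Mt2: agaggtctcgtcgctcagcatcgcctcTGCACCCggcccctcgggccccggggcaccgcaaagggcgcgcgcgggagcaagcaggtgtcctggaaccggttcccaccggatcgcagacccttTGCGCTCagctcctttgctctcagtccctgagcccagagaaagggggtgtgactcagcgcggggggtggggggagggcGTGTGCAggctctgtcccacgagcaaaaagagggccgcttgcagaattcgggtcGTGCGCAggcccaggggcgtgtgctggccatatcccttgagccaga
Slc25a39: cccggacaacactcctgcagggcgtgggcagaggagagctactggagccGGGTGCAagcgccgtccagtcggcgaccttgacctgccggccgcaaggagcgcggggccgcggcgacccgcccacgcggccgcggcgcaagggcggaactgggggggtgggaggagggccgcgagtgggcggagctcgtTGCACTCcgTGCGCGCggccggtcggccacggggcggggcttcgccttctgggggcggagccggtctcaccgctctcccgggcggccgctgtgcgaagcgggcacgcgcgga
The core occurred 2 times in the Slc30a1 window, 3 times in that of Mt1, 4 times in that of Mt2 and 3 times in that of Slc25a39, with no overlap between matches. Of 32851 promoter windows of this length 25.7% held at least 1 match, and of the 81 solute carriers matched to a window 36 did (44.4%). The first share counts windows, whether or not their gene was expressed. The second counts genes with a match in any of their windows, and these genes were chosen by their expression. The shares, here and for the motifs below, therefore differ in unit and in choice of genes, and enrichment was not tested. Other motifs were also searched on both strands: the E-box CACGTG stood in 16 of the 81 (19.8%) and in 7.15% of all windows, the GC box GGGCGG in 68 (84.0%) and in 35.7%, and the letters TGATGNAA in 3 (3.704%) and in 3.97%. The metal response element stood in 14 of 21 genes higher in Distal, 9 of 20 lower and 13 of 40 that did not pass. In the same order, the GC box stood in 20, 16 and 32, the E-box in 2, 5 and 9, and TGATGNAA in 0, 1 and 2. The higher genes also had the higher GC content, and a link of any motif to direction was not tested. All these matches are letters in a window and do not show binding.

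Of 15 tested genes of zinc, copper and iron handling, the metallothioneins included, 4 were higher in Distal and 5 lower, and 2 and 4 with the trend removed. Over all tested genes these shares were 24.3% and 24.1%, and 10.4% and 8.59% with the trend removed. Atox1, a copper chaperone, and Ftl1, the light chain of the iron store ferritin, were higher in both fits (log2 fold changes 1.57 and 1.83, adjusted p = 5.62e-06 and 7.00e-06; trend removed 0.50 and 0.84, adjusted p = 0.0316 and 0.00325). Ireb2, which controls the translation of iron genes, was lower only as deposited (log2 fold change -1.35, adjusted p = 4.02e-05; trend removed -0.31, adjusted p = 0.306). Among the 4 carriers of copper, iron and magnesium, the copper importer Slc31a1 had 69.4, 102 and 185 scaled CPM in Distal libraries, against 150.0, 203 and 296 in Control libraries (log2 fold change -0.88 ± 0.22, adjusted p = 0.00324) and the magnesium transporter Slc41a1 had 16.2, 22.5 and 35.3 scaled CPM in Distal libraries, against 9.13, 13.6 and 16.3 in Control libraries. For Slc41a1 the log2 fold change was 0.95 ± 0.24 (adjusted p = 0.00323). Neither passed with the trend removed or with counts summed per set.

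Of the 15 amino acid transporters 3 were higher, 3 lower and 9 did not pass. With the trend removed 0 were higher and 2 lower. The highest in CPM was Slc38a2, a sodium-coupled carrier of small neutral amino acids, with lowest, median and highest values of 417, 464 and 579.8 scaled CPM in Distal libraries, against 679, 865 and 965 in Control libraries. All Distal libraries were below all Control libraries (log2 fold change -0.82 ± 0.13, adjusted p = 7.70e-05), but the difference was 0.08 with the trend removed (adjusted p = 0.673). Its relative Slc38a4 had 4.02, 8.33 and 14.2 scaled CPM in Distal libraries, against 11.1, 20.7 and 35.6 in Control libraries, with overlap, and was lower in both fits (log2 fold change -1.36 ± 0.33, adjusted p = 0.00252; trend removed -0.99 ± 0.31, adjusted p = 0.03203). It entered the list only through its Control mean, so its direction was fixed by the choice of members. Slc36a4, an amino acid carrier of the proton-assisted family, had 7.79, 11.3 and 26.2 scaled CPM in Distal libraries, against 22.1, 25.6 and 36.2 in Control libraries, with overlap. For Slc36a4 the log2 fold change was -0.95 ± 0.27 (adjusted p = 0.00737), and with the trend removed it was -0.54 ± 0.26 (adjusted p = 0.162). Slc38a10, of the same family as Slc38a2, had 32.1, 40.6 and 58.1 scaled CPM in Distal libraries, against 9.23, 17.6 and 21.7 in Control libraries, without overlap. For Slc38a10 the log2 fold change was 1.35 ± 0.21 (adjusted p = 6.61e-05), and with the trend removed it was 0.29 ± 0.18 (adjusted p = 0.291).

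The heavy chain Slc3a2 and its partner Slc7a5, which together exchange large neutral amino acids, were both higher as deposited. Slc3a2 had 253, 359 and 418 scaled CPM in Distal libraries, against 194, 229 and 260.5 in Control libraries. For Slc3a2 the log2 fold change was 0.54 ± 0.13 (adjusted p = 0.00304). Slc7a5 had 53.4, 88.2 and 116 scaled CPM in Distal libraries, against 38.6, 52.6 and 59.9 in Control libraries. For Slc7a5 the log2 fold change was 0.77 ± 0.17 (adjusted p = 0.00136). The groups overlapped for both, and with the trend removed the differences were -0.26 and -0.12 (adjusted p = 0.114 and 0.616), with the sign turned. The glutamine carrier Slc1a5 had 39.3, 50.02 and 72.4 scaled CPM in Distal libraries, against 35.3, 38.6 and 64.1 in Control libraries, with overlap, and did not pass (log2 fold change 0.29 ± 0.18, adjusted p = 0.186); it passed as higher only without Distal replicate 4 (adjusted p = 0.0439). Slc7a1, a carrier of arginine and lysine, had 154, 252 and 320.5 scaled CPM in Distal libraries, against 187, 236 and 278 in Control libraries and overlapped widely. For Slc7a1 the log2 fold change was 0.11 ± 0.16 (adjusted p = 0.5697). The taurine transporter Slc6a6 had 115, 155 and 202 scaled CPM in Distal libraries, against 153, 183 and 252 in Control libraries: the groups overlapped and it passed only with the trend removed. For Slc6a6 the log2 fold change was -0.25 ± 0.16 (adjusted p = 0.189), and with the trend removed it was -1.05 ± 0.16 (adjusted p = 0.000199). Slc6a14, a broad neutral and cationic amino acid carrier, varied widely among Distal libraries, with a coefficient of variation of 107%. It was at 0.351, 3.66, 33.2, 0, 29.9 and 47.2 scaled CPM in Distal replicates 1 to 6, so 3 libraries were at 3.66 or below and 3 were above every Control library. The Control libraries ran between 5.35 and 27.6. The comparison of regions did not pass (log2 fold change 0.36 ± 0.74, adjusted p = 0.706), and without the MEM2 set, which holds Distal replicates 3 to 6, the value was -2.89 (adjusted p = 0.0168).

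**Figure D4:**
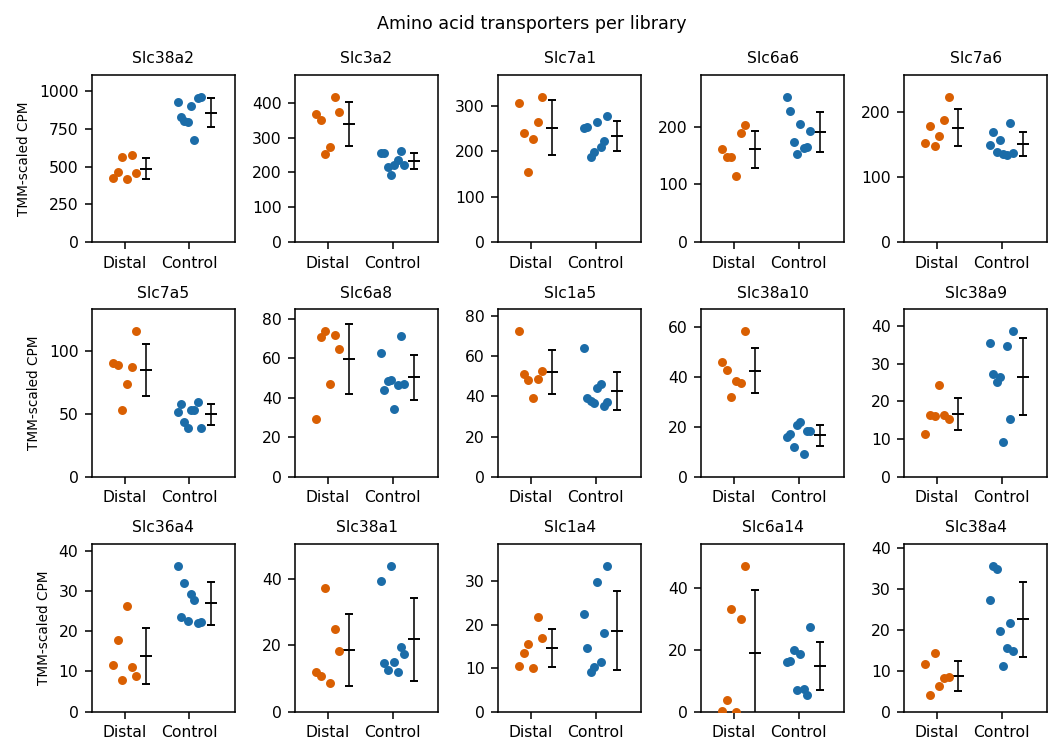
TMM-scaled CPM of the 15 amino acid transporters in each library, in order of mean CPM, with Distal left of Control and the mean ± SD beside the points (n = 6 Distal and 8 Control). Slc38a2 and Slc38a10 separate the regions in opposite directions, and the 6 Distal points of Slc6a14 lie at 3.66 or below, or at 29.9 or above.

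Beside these carriers, 23 genes of amino acid sensing by mTORC1 were tested, of which 11 were higher and 7 lower. With the trend removed 2 were higher and 1 lower. The shares over all tested genes were 24.3% and 24.1% as deposited, and 10.4% and 8.59% with the trend removed. Lamtor1, a scaffold of the lysosomal complex that recruits mTORC1, was higher in both fits (log2 fold change 1.27, adjusted p = 1.24e-05; trend removed 0.66, adjusted p = 0.00630), and Rraga, a GTPase of the same machinery, was lower in both (-1.55, adjusted p = 1.11e-05; trend removed -1.30, adjusted p = 0.000162). The arginine sensor Castor1 was higher only as deposited (log2 fold change 1.45, adjusted p = 0.000240; trend removed 0.53, adjusted p = 0.114). Of 8 proteins that accompany or regulate transporters, 3 were higher and 2 lower, with 0 and 1 after the trend was removed. Emb, a chaperone of monocarboxylate transporters, had 299, 435 and 744 scaled CPM in Distal libraries, against 894, 1177 and 1273 in Control libraries. The groups did not overlap, and it was lower in both fits (log2 fold change -1.24, adjusted p = 3.93e-05; trend removed -0.68, adjusted p = 0.00153). The sodium-proton exchanger regulator Slc9a3r1 was higher and the kinase Stk39, an activator of cation-chloride cotransport, lower only as deposited (log2 fold changes 1.07 and -1.05, adjusted p = 6.23e-05 and 0.000667; trend removed, adjusted p = 0.655 and 0.110).

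Carriers that set pH and cell volume also split by direction. Of 9 bicarbonate, proton and sodium exchangers 3 were higher and 3 lower, and of 4 cation-chloride cotransporters 1 was higher and 2 lower, but none passed with the trend removed. Slc4a2, the chloride-bicarbonate exchanger that removes base from the cell, had 41.5, 54.7 and 68.8 scaled CPM in Distal libraries, against 14.8, 18.9 and 33.9 in Control libraries, without overlap. For Slc4a2 the log2 fold change was 1.41 ± 0.20 (adjusted p = 2.91e-05), and with the trend removed it was 0.36 ± 0.17 (adjusted p = 0.142). The sodium-bicarbonate importer Slc4a7 had 35.6, 58.8 and 67.7 scaled CPM in Distal libraries, against 83.7, 122 and 194 in Control libraries, with every Distal library below the Control libraries. For Slc4a7 the log2 fold change was -1.18 ± 0.20 (adjusted p = 0.000119), and with the trend removed it was -0.41 ± 0.19 (adjusted p = 0.138). The sulfate carrier Slc26a2 had 7.102, 15.1 and 20.4 scaled CPM in Distal libraries, against 16.3, 31.4 and 62.4 in Control libraries, with 2 Distal libraries inside the Control range. For Slc26a2 the log2 fold change was -1.24 ± 0.33 (adjusted p = 0.00546), and with the trend removed it was -0.35 ± 0.35 (adjusted p = 0.529). The potassium-chloride exporter Slc12a4 had 16.7, 28.5 and 37.5 scaled CPM in Distal libraries, against 9.46, 13.8 and 17.5 in Control libraries, with overlap. For Slc12a4 the log2 fold change was 1.02 ± 0.23 (adjusted p = 0.00173). The volume-restoring importer Slc12a2 had 84.01, 146 and 196 scaled CPM in Distal libraries, against 191, 251 and 433 in Control libraries, with overlap. For Slc12a2 the log2 fold change was -0.89 ± 0.21 (adjusted p = 0.00213). With the trend removed their adjusted p was 0.992 and 0.541. Of 8 ion-pumping ATPases 1 was higher and 4 lower as deposited, beside 24.3% and 24.1% of all tested genes. With the trend removed 0 of 8 passed, beside 19.0% of all tested genes. The calcium pump Atp2b1, the sodium pump subunit Atp1b3 and the copper pump Atp7a were lower as deposited (log2 fold changes -1.001, -0.71 and -1.10, adjusted p = 8.13e-05, 0.000548 and 0.00286).

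Among the 5 carriers of monocarboxylates, fatty acids and acetyl-CoA 3 were higher and 1 lower, with 0 and 0 after the trend was removed. The higher gene not described below entered the list only through its Distal mean, so its direction was fixed by the choice of members. Slc16a3, the lactate exporter of glycolytic cells, had 93.9, 161 and 215 scaled CPM in Distal libraries, against 71.7, 82.1 and 132 in Control libraries, overlapping through Control replicate 7. For Slc16a3 the log2 fold change was 0.84 ± 0.18 (adjusted p = 0.000779), and with the trend removed it was -0.22 ± 0.14 (adjusted p = 0.286). Slc16a13, a lactate transporter relative, had 25.03, 39.8 and 49.6 scaled CPM in Distal libraries, against 18.6, 22.3 and 26.7 in Control libraries, with overlap. For Slc16a13 the log2 fold change was 0.81 ± 0.18 (adjusted p = 0.00141), and with the trend removed it was -0.14 ± 0.17 (adjusted p = 0.623). Slc33a1, which brings acetyl-CoA into the endoplasmic reticulum, had 9.51, 26.1 and 31.5 scaled CPM in Distal libraries, against 20.4, 53.7 and 64.9 in Control libraries, with overlap. For Slc33a1 the log2 fold change was -1.09 ± 0.29 (adjusted p = 0.0045), and with the trend removed it was -0.55 ± 0.29 (adjusted p = 0.199). Of 4 sugar carriers 1 was higher and 2 lower, and 0 and 1 with the trend removed. The fructose carrier Slc2a5 had 17.2, 33.96 and 48.8 scaled CPM in Distal libraries, against 14.96, 18.5 and 32.7 in Control libraries, with overlap. For Slc2a5 the log2 fold change was 0.800 ± 0.24 (adjusted p = 0.0116), and with the trend removed it was 0.03 ± 0.24 (adjusted p = 0.956). The myo-inositol importer Slc5a3 had 85.98, 133 and 319 scaled CPM in Distal libraries, against 191, 298 and 431 in Control libraries, with overlap (log2 fold change -0.81 ± 0.28, adjusted p = 0.0239; trend removed -0.06 ± 0.23, adjusted p = 0.895); its call was lost without Control replicate 8 or Distal replicate 1, 2 or 6, with adjusted p up to 0.0677. Slc50a1, a sugar carrier of the SWEET family, had 23.01, 32.1 and 41.3 scaled CPM in Distal libraries, against 33.5, 42.3 and 62.4 in Control libraries, with overlap, and was lower in both fits. For Slc50a1 the log2 fold change was -0.502 ± 0.20 (adjusted p = 0.0495), and with the trend removed it was -1.13 ± 0.21 (adjusted p = 0.001203). As deposited it kept its call only without Control replicate 3 or 4, with adjusted p up to 0.222 without another library.

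Of the 8 carriers of nucleosides and nucleotide sugars 4 were higher and 2 lower, and none passed with the trend removed. Slc29a2 and the higher gene not described below entered the list only through their Distal mean, so their direction was fixed by the choice of members. Slc29a1, an equilibrative nucleoside transporter, had 17.9, 26.1 and 30.6 scaled CPM in Distal libraries, against 8.04, 10.2 and 14.6 in Control libraries, without overlap. For Slc29a1 the log2 fold change was 1.23 ± 0.22 (adjusted p = 0.000187), and with the trend removed it was 0.39 ± 0.20 (adjusted p = 0.19). Its relative Slc29a2, which entered the list only through its Distal mean, had 9.87, 17.6 and 32.3 scaled CPM in Distal libraries, against 3.54, 6.2 and 11.9 in Control libraries, with overlap. For Slc29a2 the log2 fold change was 1.44 ± 0.31 (adjusted p = 0.00105), and with the trend removed it was 0.52 ± 0.28 (adjusted p = 0.2098). Slc35a4, of the nucleotide sugar transporter family, had 85.2, 90.9 and 97.7 scaled CPM in Distal libraries, against 48.6, 60.4 and 67.1 in Control libraries, without overlap. Its coefficient of variation was 5.79% in Distal libraries, the lowest of the 107 genes there, and 10.6% in Control libraries. For Slc35a4 the log2 fold change was 0.59 ± 0.12 (adjusted p = 0.000858), and with the trend removed it was -0.15 ± 0.12 (adjusted p = 0.453). Slc35a3, which brings UDP-N-acetylglucosamine into the Golgi, had 106, 131 and 233 scaled CPM in Distal libraries, against 216, 264 and 302 in Control libraries, overlapping through Distal replicate 4. For Slc35a3 the log2 fold change was -0.84 ± 0.17 (adjusted p = 0.000725), and with the trend removed it was -0.21 ± 0.13 (adjusted p = 0.293).

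Carriers of vitamins, choline and heme held 3 genes that were higher and 3 that were lower of 7, with 0 and 1 after the trend was removed. The heme transporter Slc48a1 had 55.2, 63.4 and 78.2 scaled CPM in Distal libraries, against 12.9, 25.5 and 34.8 in Control libraries, without overlap. For Slc48a1 the log2 fold change was 1.34 ± 0.21 (adjusted p = 5.41e-05), and with the trend removed it was 0.53 ± 0.19 (adjusted p = 0.0535). The riboflavin carrier Slc52a3 had 9.16, 16.5 and 20.6 scaled CPM in Distal libraries, against 2.41, 5.196 and 13.96 in Control libraries, with overlap (log2 fold change 1.43 ± 0.35, adjusted p = 0.00249; trend removed 0.79 ± 0.35, adjusted p = 0.125) and entered the list only through its Distal mean. Slc19a1, the reduced folate carrier, had 34.2, 51.2 and 71.04 scaled CPM in Distal libraries, against 15.1, 23.7 and 53.9 in Control libraries, with overlap. For Slc19a1 the log2 fold change was 0.97 ± 0.26 (adjusted p = 0.00563), and with the trend removed it was 0.06 ± 0.23 (adjusted p = 0.885). The choline carrier Slc44a1 had 103, 167 and 189 scaled CPM in Distal libraries, against 163, 252 and 326 in Control libraries, with overlap. For Slc44a1 the log2 fold change was -0.63 ± 0.17 (adjusted p = 0.00504), and with the trend removed it was -0.32 ± 0.16 (adjusted p = 0.174). The thiamine carrier Slc19a2 had 56.2, 101 and 172 scaled CPM in Distal libraries, against 106, 164 and 234 in Control libraries, with overlap. For Slc19a2 the log2 fold change was -0.62 ± 0.24 (adjusted p = 0.0419), and with the trend removed it was -0.298 ± 0.23 (adjusted p = 0.399). The Slc19a2 call was lost without any 1 of Control replicates 3, 5, 6 and 8 and Distal replicates 1, 2, 5 and 6, with adjusted p up to 0.137. Slc23a2, which imports ascorbate, had 18.3, 24.1 and 38.3 scaled CPM in Distal libraries, against 25.8, 35.5 and 56.3 in Control libraries, with overlap, and was lower in both fits. For Slc23a2 the log2 fold change was -0.68 ± 0.23 (adjusted p = 0.0232), and with the trend removed it was -0.83 ± 0.24 (adjusted p = 0.0215). As deposited its call was lost without Control replicate 7 or any 1 of Distal replicates 1, 2, 4, 5 and 6, with adjusted p up to 0.102.

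The phosphate importer Slc20a2 had 40.6, 57.2 and 71.7 scaled CPM in Distal libraries, against 28.5, 39.6 and 46.9 in Control libraries, with Distal replicates 3 and 4 inside the Control range, and was higher in both fits. For Slc20a2 the log2 fold change was 0.503 ± 0.17 (adjusted p = 0.0203), and with the trend removed it was 0.68 ± 0.17 (adjusted p = 0.00927). In the group of peptide and organic ion carriers the vesicular monoamine transporter Slc18a2 was lower, with 35.1, 46.5 and 58.7 scaled CPM in Distal libraries, against 64.3, 85.2 and 179 in Control libraries and no overlap (log2 fold change -1.14 ± 0.26, adjusted p = 0.00178; trend removed -0.35 ± 0.23, adjusted p = 0.3299; without the CTRL2 set, which holds Control replicates 7 and 8, -0.66, adjusted p = 0.00588). Another gene of that group, Slc22a23, of the organic ion transporter family, had 56.6, 61.3 and 81.03 scaled CPM in Distal libraries, against 46.6, 63.6 and 71.5 in Control libraries, with overlap. As deposited its log2 fold change was 0.08 ± 0.15 (adjusted p = 0.685), and with the trend removed the sign turned and it passed as lower, at -0.51 ± 0.17 (adjusted p = 0.0385).

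Both fits together called 9 solute carriers. They are listed as a description, since the share of all tested genes called in both fits is not given here. With the trend removed, 12.1% of the solute carriers passed, beside 19.0% of all tested genes. The glutathione carrier Slc25a39, Slc25a48, Slc25a25 and the phosphate importer Slc20a2 were higher in Distal, and the zinc importer Slc39a6, the amino acid carrier Slc38a4, the folate carrier Slc25a32, the sugar carrier Slc50a1 and the ascorbate carrier Slc23a2 were lower. Of these, Slc25a25 entered the list only through its Distal mean and Slc38a4 only through its Control mean. Slc25a32 and Slc23a2, and likewise Slc30a9 and Slc22a23, lie outside the rule for named genes and were chosen after their values were seen. With counts summed per set, so that each of the 4 sets was 1 sample, 18 solute carriers were higher and 8 lower (19.2% of 14491 genes passed), Slc25a39, Slc25a48, Slc25a25 and Slc38a4 among them. Besides the genes for which this is given above, summing ended the calls of Slc38a2, Slc3a2, Slc36a4, Slc12a2, Slc2a5, Slc5a3, Slc35a3, Slc35a4, Slc44a1, Slc19a1, Slc19a2, Slc30a4, Slc39a3, Slc20a2, Slc25a32, Slc50a1 and Slc23a2. With counts summed and the trend removed 0 of 107 passed by edgeR, beside 24 of 14377 genes, and 22 of 107 (20.6%) had an unadjusted p under 0.05, beside 18.8% of all tested genes. Of the genes named above, 8 share exonic bases with another expressed gene. Among them, on opposite strands, are Slc25a25 with Naif1 (379 bases), Slc20a2 with Smim19 (95 bases), Slc4a2 with Fastk (1141 bases) and Slc39a13 with Psmc3 (215 bases). Without a stated strand setting their counts are uncertain. Slc5a3 shares 159 bases with Mrps6 on the same strand, which no strand setting would separate, so its count is uncertain too.

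**Figure D5:**
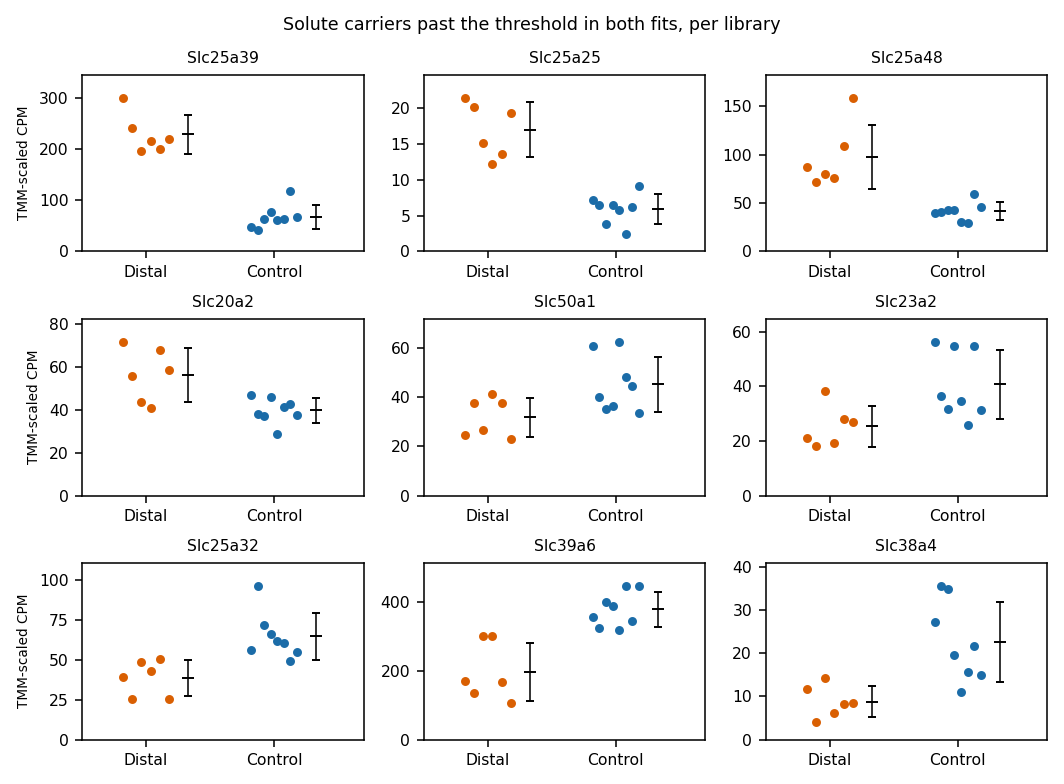
TMM-scaled CPM in each library of the 9 solute carriers that passed an adjusted p of 0.05 both as deposited and with the GC and length trend removed, in order of log2 fold change, with Distal left of Control and the mean ± SD beside the points (n = 6 Distal and 8 Control). The groups do not overlap for Slc25a39, Slc25a25, Slc25a48 and Slc39a6.

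Library sets within a region were also compared. The Distal libraries came as the sets MEM1 (2 libraries) and MEM2 (4), and the Control libraries as CTRL1 (6) and CTRL2 (2), each set in 1 region only, so no set compares the regions. MEM2 against MEM1 called 0 solute carriers by edgeR (0% of all tested genes), with 13 of 107 (12.1%) at an unadjusted p under 0.05 beside 7.83% of all tested genes. CTRL2 against CTRL1 likewise called 0 (0% of all tested genes), with 11 (10.3%) beside 8.24%; without a filter on low counts 1 passed, Slc18a2. In Slc18a2 both CTRL2 libraries, at 176 and 179 scaled CPM, were above the CTRL1 libraries at 64.3 to 96.8 (log2 fold change 1.18 ± 0.22, unadjusted p = 4.33e-05, adjusted p = 0.295). The next smallest p values between the Control sets were those of Slc25a44, Slc19a1 and Slc25a43, with log2 differences (CTRL2 over CTRL1) of -1.66, 0.96 and 1.12 and adjusted p of at least 0.471. The smallest p values between the Distal sets were those of Slc19a2, Slc6a14, Slc39a10 and the sodium-bicarbonate carrier Slc4a4, with adjusted p of at least 0.598.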

How the data were processed

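Smart-seq2 cDNA and Nextera XT libraries were made from small pools of sorted, cultured cells, per the labels' protocols. The authors deposited raw counts per gene symbol for 14 libraries, made with HISAT2 on mm10/GRCm38 and featureCounts, per the submitters' processing notes. Strand setting and treatment of multi-mapped reads are not given in the sources used here. Samples were grouped by the region label. CPM of the deposited columns chose the genes, and values shown are CPM on TMM-scaled totals.

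The test was run with edgeR 4.0.16 in R 4.3.3 (low-count filter by filterByExpr, TMM, robust two-sided quasi-likelihood F test, Benjamini-Hochberg adjusted p under 0.05). Log2 fold changes are Distal over Control, ± SE, the absolute value divided by the square root of F. In a further fit, natural splines (4 degrees of freedom each) of transcript GC content and log2 length (GENCODE vM21) were removed per library as offsets. DESeq2 1.42.0 and limma-voom 3.58.1 were alternatives. Scripts were tested on simulated data. Total counts were 2137934 to 4513518 in Distal and 4515646 to 7458872 in Control libraries.

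Members, lists and alternatives were chosen with earlier results of these data known. Named genes are the 10 of highest mean CPM, the 12 largest called changes each way, up to 3 of smallest p per transport group, those near the membership threshold, the 4 of smallest p per set comparison, the 6 of smallest p with the trend removed, up to 3 per other list, and Slc3a2, Slc7a5, Slc1a5, Slc25a4, Slc25a5 and Slc30a1. Some genes that this rule names are not reported here, and Slc22a23, Slc23a2, Slc25a32 and Slc30a9 were added after their values were seen. Other genes of the pathways come from fixed lists. Titles of Control replicates 7 and 8 name the set Ctrl1 where their descriptions name CTRL2, and the descriptions were used. All 43 pairs of libraries within a region differed by more than sampling noise (chi-square per degree of freedom at least 6.83), and all were kept as separate libraries.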

Additional observations from a re-analysis of the deposited data

Results flagged for a closer look

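Within a region, 10 of the solute carriers named above had 1 library far from the others, by Dixon's criterion at 95%, which chance meets in about 1 of 20 groups. All values are TMM-scaled CPM. Slc35a3, the Golgi carrier of UDP-N-acetylglucosamine, was high in Distal replicate 4 at 233, against 151 in the next library. Slc22a23, of the organic ion transporter family, was high in the same library at 81.0, against 63.5. Slc4a4, a sodium-bicarbonate carrier, was high in Distal replicate 3 at 49.9, against 18.6.

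Control replicate 7 was high for 4 of them: Slc25a39 at 118 against 78.0 in the next library, Slc16a3 at 132 against 88.5, Slc19a1 at 53.9 against 31.1 and Slc4a2 at 33.9 against 23.2. Control replicate 1 was high for Slc4a7 at 194 against 127 and for Slc1a5 at 64.1 against 46.4. Control replicate 6 was high for Slc52a3, the riboflavin carrier, at 13.96 against 7.01. Over all 107 genes, 18 of 214 gene and region groups met the criterion, 6 of them through Control replicate 7 and 4 through Distal replicate 4.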

How the results depend on the processing

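The counts of 29 solute carriers higher and 28 lower in Distal stayed within 1.5 times under other scalings, limma-voom, DESeq2, no filter on low counts, thinning of counts, equal weights of the sets and the replicate block. The median log2 fold change, 0.02 in the main fit, was 0.17 with upper-quartile scaling. It was -0.06 with limma-voom and with the replicate block. Removing the GC and length trend gave 5 higher and 8 lower, summing counts per set 18 and 8, and both together 0 and 0. Keeping libraries over 4000000 counts gave 7 and 2, with fewer samples, and leaving out the set CTRL1 gave 8 and 10; leaving out MEM1 gave 14 lower. A membership threshold of 20 CPM gave 17 higher. The median was 0.22 with thinned counts, -0.21 without MEM2, and -0.24 with a threshold of 20 CPM or of 10 CPM in each region. Without 1 library, 28 to 34 genes were higher and 19 to 27 lower, with medians of -0.05 to 0.19. On CPM without TMM scaling, added after the data were seen, 2 solute carriers in place of 5 had every Distal library below the Control libraries. Without a filter, 1 gene differed between the Control sets. No cause was tested.

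Same-numbered libraries of the 2 regions correlated by -0.02 to 0.11, over 0.1 in 1 of 6 pairs, so the numbers were not taken as pairs, and 2 of 6 libraries correlated best with their own number. The replicate block gave 31 higher and 27 lower, and 4 and 9 with the trend removed.

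With the trend removed, with it removed and counts summed, and with it removed and a block, the sign turned for Slc38a2 (0.084, 0.074 and 0.12), Slc3a2 (-0.26, -0.23 and -0.26), Slc12a2 (0.14, 0.024 and 0.26), Slc7a5 (-0.12, -0.10 and -0.15), Slc16a3 (-0.22, -0.22 and -0.19), Slc16a13 (-0.14, -0.021 and -0.19) and Slc35a4 (-0.15, -0.11 and -0.15). It turned with the trend removed and counts summed for Slc31a1 (0.033), Slc2a5 (-0.079) and Slc19a1 (-0.13), and with the trend removed and the block for Slc5a3 (0.031), Slc18a2 (0.044) and Slc30a5 (0.13). None of these passed the threshold. Values that passed only with the sign turned were those of Slc22a23 (-0.51 with the trend removed and -0.53 with a block as well) and Slc30a9 (0.78 with the trend removed). Slc6a14 turned to -2.89 without MEM2. Over the 62 named genes and all alternatives, 1537 of the values kept direction and side of the threshold, 282 lost the call, 28 gained it, 31 turned sign where 1 of the 2 fits passed and 44 where neither did. Distal libraries were shallower than all Control libraries, which limits low genes most.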

Other observations

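Transporters outside the symbol pattern moved in both directions too. For the counts below, 24.3% of all tested genes were higher in Distal and 24.1% lower. With the GC and length trend removed these shares were 10.4% and 8.59%. Of 18 tested ABC transporters, which pump lipids, drugs and peptides with ATP, 7 were higher in Distal and 4 lower, and 1 and 1 with the GC and length trend removed. Abcg2, an efflux pump of many drugs, had lowest, median and highest values of 145, 169 and 202 scaled CPM in Distal libraries, against 273, 316 and 383 in Control libraries, without overlap (log2 fold change -0.94 ± 0.13, adjusted p = 1.45e-05; trend removed -0.25 ± 0.12, adjusted p = 0.155). Its relative Abcb1b was lower in both fits (log2 fold change -1.02 ± 0.15, adjusted p = 4.69e-05; trend removed -0.50 ± 0.14, adjusted p = 0.0184). Abcf1, a family member with a role in translation, was higher only as deposited (log2 fold change 1.06 ± 0.15, adjusted p = 3.27e-05; trend removed 0.23 ± 0.13, adjusted p = 0.258).

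Of 16 water and chloride channels 4 were higher and 4 lower, and 4 and 2 with the trend removed. Aqp3, the water and glycerol channel of the epidermis, had 94.9, 144 and 211 scaled CPM in Distal libraries, against 202, 404 and 470 in Control libraries. The groups overlapped slightly, and it was lower in both fits (log2 fold change -1.41 ± 0.22, adjusted p = 7.42e-05; trend removed -2.09 ± 0.24, adjusted p = 1.95e-05). Clic1, a chloride channel protein, was higher in both (log2 fold change 1.26 ± 0.13, adjusted p = 2.49e-06; trend removed 0.67 ± 0.11, adjusted p = 0.000424), and Clcn3 was lower only as deposited (log2 fold change -1.30 ± 0.24, adjusted p = 0.000318; trend removed -0.36 ± 0.19, adjusted p = 0.189).

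Solute carriers with symbols of another form counted 21 tested genes, 5 higher and 3 lower, and 3 and 2 with the trend removed. Slc35b2, which brings the sulfate donor PAPS into the Golgi, had 72.4, 107 and 133 scaled CPM in Distal libraries, against 20.1, 32.2 and 51.2 in Control libraries. Every Distal library was above every Control library, and it was higher in both fits (log2 fold change 1.603 ± 0.19, adjusted p = 5.87e-06; trend removed 0.59 ± 0.17, adjusted p = 0.0205), as was Slc35e4 (1.67 ± 0.24, adjusted p = 2.74e-05; trend removed 0.75 ± 0.20, adjusted p = 0.0118). Slc35c2 passed only as deposited (1.40 ± 0.27, adjusted p = 0.000382; trend removed 0.42 ± 0.26, adjusted p = 0.276).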
